A study of Mus musculus with 12 samples.

Results

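Transcripts of 9 genes of the IGF1 receptor, AKT and mTOR pathway were followed across 12 RNA-seq libraries of mouse bone marrow cells sorted as hematopoietic stem cells (HSCs). The genes were taken by name from the 31340 gene rows of each library, and all 9 were found, each on a single row. They are Igf1r, the receptor of insulin-like growth factor 1, the kinases Akt1, Akt2 and Mtor, the mTOR partners Rptor and Rictor, and the regulators Tsc1, Tsc2 and Rheb. The libraries fell into 4 groups of 3, labelled Ctrl, IR, Ab_IR and L_IR. All came from wild-type (WT) mice, and cells of the 3 irradiated groups were collected 3 days after ionizing radiation. According to the study's methods, irradiation was given to the whole body at a sublethal dose and the sort took Lineage- Sca-1+ c-Kit+ cells lacking Flt3 and CD34. Ab and L are not written out in the labels, which give no age either, and both names are used as given. Nothing in the labels says whether libraries of a group came from separate mice or from pools, so p-values measure the spread between these libraries, which may be technical. Values are in FPKM, a fragment count scaled by gene length and by library size. Read counts were not used here, so sequencing depth is unknown and counting error could not be estimated.

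IGF1 binds IGF1R, a receptor tyrosine kinase, which recruits PI3K and thereby activates the AKT kinases. AKT phosphorylates and restrains the complex of TSC1 and TSC2, which otherwise keeps the small GTPase RHEB inactive, and active RHEB switches on mTOR. The mTOR kinase works in complex 1 with RPTOR, which drives protein synthesis and growth, and in complex 2 with RICTOR, which phosphorylates AKT. In HSCs, this pathway is known for governing the exit from quiescence. Its activity is set largely by phosphorylation, which RNA levels do not measure.

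The promoters of Igf1r, Akt1 and Rictor are shown. Igf1r and Akt1 had their highest group means in IR, whereas Rictor had its lowest there. Akt2 and Rheb, whose promoters are not shown, also had their highest means in IR. Each sequence holds the 250 bases before the RefSeq transcription start (GRCm38.p6), written 5′ to 3′ on the gene's strand, and RefSeq promoters matched all 9 genes. Capitals mark matches to any of 6 motifs searched on both strands. These were the GC box GGGCGG, the CCAAT box CCAAT, the E-box CACGTG, the FOXO site GTAAACA, the CRE TGACGTCA and the TATA box TATAAA.
Igf1r, chr7:67952007-67952256, plus strand: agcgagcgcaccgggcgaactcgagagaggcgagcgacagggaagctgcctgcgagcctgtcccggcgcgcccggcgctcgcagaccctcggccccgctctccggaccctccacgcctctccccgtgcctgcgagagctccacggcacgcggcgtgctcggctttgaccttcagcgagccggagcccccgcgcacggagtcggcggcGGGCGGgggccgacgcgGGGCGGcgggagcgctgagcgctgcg
Akt1, first of its 2 listed starts, chr12:112674885-112675134, minus strand: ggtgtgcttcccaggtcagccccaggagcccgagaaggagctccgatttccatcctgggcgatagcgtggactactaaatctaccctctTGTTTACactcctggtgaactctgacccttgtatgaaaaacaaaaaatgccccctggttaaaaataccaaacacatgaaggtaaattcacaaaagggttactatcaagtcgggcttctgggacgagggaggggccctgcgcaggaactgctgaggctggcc
Akt1, second listed start, chr12:112674277-112674526, minus strand: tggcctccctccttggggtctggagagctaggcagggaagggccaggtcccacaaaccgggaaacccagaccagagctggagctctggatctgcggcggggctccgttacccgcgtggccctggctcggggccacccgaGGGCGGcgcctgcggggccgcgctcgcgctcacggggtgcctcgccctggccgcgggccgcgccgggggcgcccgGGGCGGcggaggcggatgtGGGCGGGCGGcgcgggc
Rictor, chr15:6708131-6708380, plus strand: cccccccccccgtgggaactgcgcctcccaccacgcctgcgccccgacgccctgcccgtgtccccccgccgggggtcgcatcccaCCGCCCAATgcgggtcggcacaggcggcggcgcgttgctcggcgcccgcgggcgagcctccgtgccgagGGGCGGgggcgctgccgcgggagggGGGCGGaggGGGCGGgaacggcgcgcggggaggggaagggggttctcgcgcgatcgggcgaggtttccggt
The Igf1r window held 2 GC boxes and the Rictor window 4, besides a CCAAT box that overlaps the first of them. Of the 2 Akt1 windows, the first held a single match, to the FOXO site on the opposite strand, and the second held 4 GC boxes. Which start these cells used was not measured. Of 32851 promoter windows of this length, 32.7% held a GC box, 33.8% a CCAAT box, 3.17% the FOXO site, 6.02% the E-box, 1.55% the CRE and 12.4% the TATA box. G and C made up 77.6% of the bases in the Igf1r window, 81.2% in the Rictor window and 52% and 78.4% in the first and second windows of Akt1. The RefSeq start of Igf1r lies upstream of the GENCODE gene start used for its position below.

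Some features of the libraries bear on all of the comparisons. Ctrl replicate 1 listed 44.1% of gene rows at 0, against 24.7% to 27.3% in the other 11 libraries. Nppa, a heart transcript, had 51.16 to 63.92 FPKM in 5 libraries (Ctrl replicates 2 and 3 and the 3 of IR), and 0 to 0.26 FPKM in the other 7. Between IR and either Ab_IR or L_IR, this possible batch and the group cannot be told apart except through Ctrl replicate 1. Of 12 HSC and progenitor markers, 4 (Slamf1, Mecom, Fgd5 and Hoxb5) were under 1 FPKM in all libraries, and the list summed to 94.1 to 101 FPKM in Ctrl, 69.9 to 76.9 in IR, 85 to 92.7 in Ab_IR and 91.5 to 92.9 in L_IR. Ly6a, which encodes Sca-1, made up most of the sum in IR, at 58.6 ± 4.26 FPKM against 35.1 ± 8.06 in Ctrl. Of the 7 markers tested against Ctrl, 5 were lower in IR and 1 higher (median -1.57). That is 71.4% and 14.3%, against 25.5% and 17.5% of all genes by the test described below. Kit, which encodes the c-Kit of the gate, had 23.5 ± 2.09 FPKM in Ctrl against 6.87 ± 0.155 in IR, 18.1 ± 0.838 in Ab_IR and 17.9 ± 0.0961 in L_IR. Genes whose products the sort selected against were detected. Cd34 had 20 ± 0.895 FPKM in Ctrl against 3.78 ± 0.125 in IR, 17.5 ± 0.726 in Ab_IR and 15.8 ± 0.25 in L_IR, and Flt3 had 10.5 ± 1.47, 1.08 ± 0.131, 7.5 ± 0.0643 and 5.87 ± 0.237 FPKM, so RNA of both went against the gate, least in IR. Markers of other cells, several of them of lineages that the Lineage- gate is meant to remove, moved with the groups. The 10 neutrophil markers summed to 10855 to 12644 FPKM in Ctrl, 16831 to 17125 in IR, 11826 to 12405 in Ab_IR and 8738 to 8951 in L_IR. The 8 plasma cell markers summed to 10042 to 13250, 17433 to 18649, 17849 to 18478 and 25588 to 26459 FPKM in the same order. Nearly all of that sum was Igkc. Of the 8 markers, 3 were higher and 4 lower in Ab_IR than in IR (37.5% and 50%, against 39.4% and 29.4% of all genes). Jchain was at 954 against 720 FPKM and Xbp1 at 95.7 against 200 FPKM. The 7 erythroid markers summed to 2904 to 3554, 516 to 523, 3101 to 3246 and 1526 to 1583 FPKM. The 6 megakaryocyte markers summed to 51.4 to 67.6, 12 to 14, 136 to 140 and 83.6 to 89.2 FPKM, and the 5 of mast cells and basophils to 277 to 324, 84.1 to 86.3, 344 to 361 and 215 to 233 FPKM. The 6 macrophage markers summed to 81 to 85.3, 56.2 to 60.5, 86.2 to 95.6 and 80.5 to 89.4 FPKM, and the 6 B cell markers, of which Pax5, Ms4a1 and Ebf1 were under 1 FPKM in all libraries, to 26.8 to 32.2, 24.1 to 24.8, 40.2 to 40.3 and 44.3 to 46 FPKM. None of these lists had a marker at 0 in all libraries, and their part in the results below was not tested. In such bulk samples, fewer cells of a type and less RNA per cell cannot be told apart.

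Akt1 was the most abundant of the 9 transcripts, with a mean of 62.6 FPKM over the 12 libraries, above 97.2% of all gene rows. Akt2 followed at 17.3 FPKM, then Tsc2 at 8.05, Rheb at 7.59, Mtor at 6.8 and Igf1r at 6.56 FPKM. The mTOR partners and Tsc1 were lowest, with 3.83 FPKM for Rptor, 2.59 FPKM for Rictor and 2.49 FPKM for Tsc1. Since FPKM are scaled by gene length, these levels can be set side by side. The gap between Akt1 and Akt2 was wider than their spread, as the lowest Akt1 library (49.78 FPKM) exceeded the highest Akt2 library (18.56 FPKM). By contrast, the libraries of Tsc2, Rheb, Mtor and Igf1r overlapped, as did those of Rptor, Rictor and Tsc1. The fold between the highest and the lowest library of a gene ran from 1.18 for Akt2 to 1.82 for Tsc1.

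**Figure D1:**
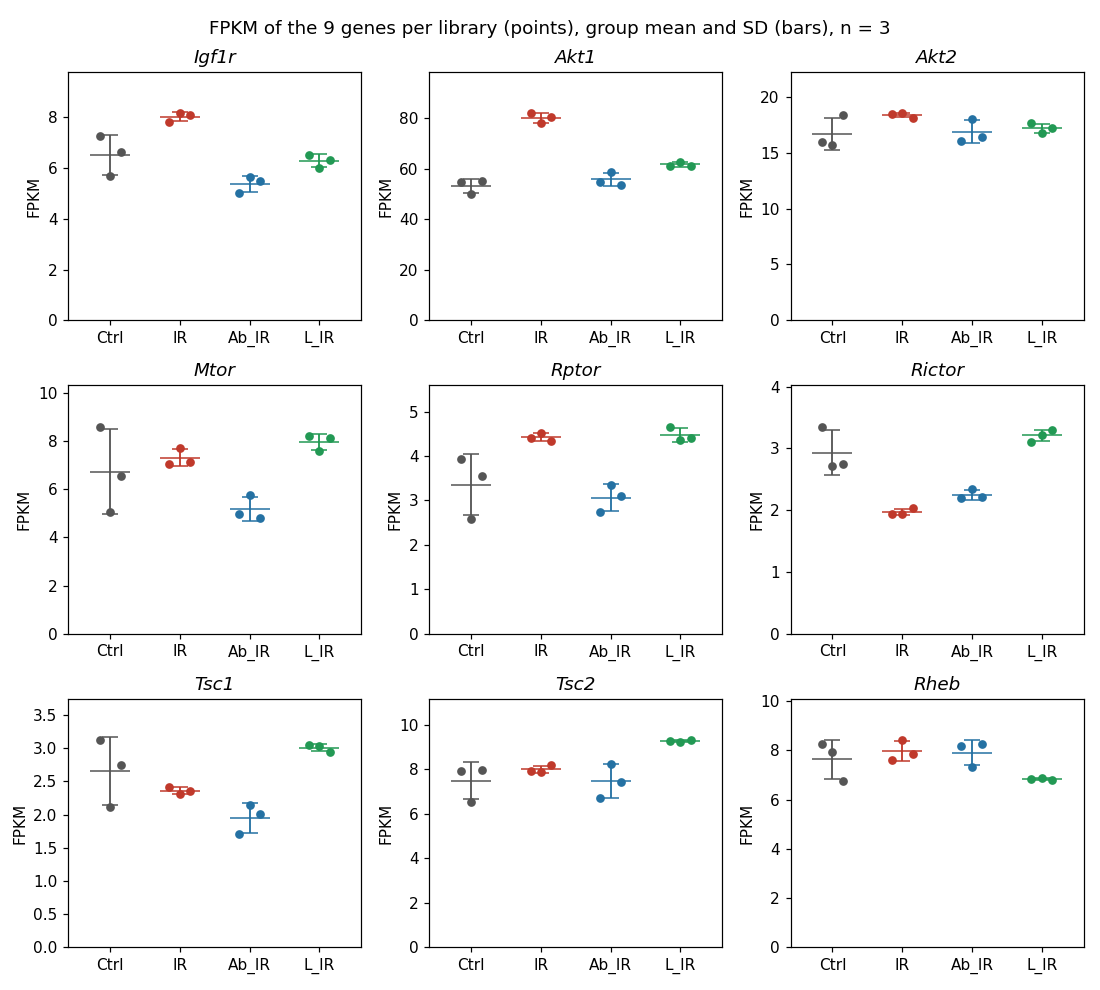
FPKM (vertical axes, from 0) of the 9 genes in each library (points) by group, with the group mean and SD (bars, n = 3). Akt1 in IR lies at 78.0 to 81.86 FPKM, above all other libraries, while Rictor in IR lies at 1.94 to 2.03 FPKM, below all others, and Ctrl libraries spread widely for Mtor.

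Each pair of groups was compared with limma on log2(FPKM + 1), a scale that understates the change of low genes, and a gene passed at an adjusted p under 0.05. Comparisons that share the IR or the Ctrl libraries are not independent of each other. IR against Ctrl asks how the transcripts of the sorted cells differed 3 days after irradiation. Akt1 rose and Rictor fell in IR, and the other 7 genes did not pass. An unadjusted p under 0.05 was found for 4 of the 9 genes, as for 51.3% of all genes. Of all 12072 genes tested, 17.5% passed as higher and 25.5% as lower, so neither direction exceeded the share over all genes. The median difference of the 9 genes was 0.13, against -0.046 over all genes. Without Ctrl replicate 1, which leaves the libraries with Nppa, 5 genes passed, while the shares of all genes rose to 25.9% higher and 32.5% lower. Igf1r (0.34), Akt1 (0.60), Mtor (0.30) and Rptor (0.42) were then higher and Rictor (-0.33) lower.

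Ab_IR and L_IR were each compared with IR to ask how these groups differed from irradiation alone. In Ab_IR, 5 genes fell (Akt1, Igf1r, Mtor, Rptor and Tsc1) and none rose, where 29.4% of 12067 genes passed as lower and 39.4% as higher. The median of the 9 genes was -0.19, against 0.061 over all genes. In L_IR, 4 genes fell (Akt1, Igf1r, Rheb and Akt2) and 3 rose (Rictor, Tsc1 and Tsc2), where 26% of 12163 genes passed as lower and 40.8% as higher. There the median of the 9 genes was 0.013 and that of all genes 0.073. With the presence of Nppa as a term and the Ctrl libraries added, which rests on Ctrl replicate 1, the 5 genes that fell in Ab_IR also passed as lower, where 25.6% of all genes were lower and 34.2% higher. In L_IR that term ended the calls of Akt2 (-0.0037), Tsc1 (-0.02) and Tsc2 (0.07), those of Igf1r, Akt1, Rictor and Rheb held, and Mtor passed as lower (-0.39), where 22.4% of all genes were lower and 33.9% higher.

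Set directly against each other, Ab_IR had lower levels than L_IR of 7 genes and a higher level of Rheb, while Akt2 did not pass. Of 12194 genes tested, 19.8% passed as lower and 18.2% as higher. The median was -0.28 for the 9 genes and 0.0063 for all genes. Both groups lie on the same side of the Nppa split. Against Ctrl, no gene passed in Ab_IR by limma, where 1.45% of genes passed as higher and 0.651% as lower, and 1 of the 9 genes and 20.9% of all genes had an unadjusted p under 0.05. Likewise none passed in L_IR, where 4.76% passed as higher and 4.08% as lower, and 3 of the 9 genes and 24.7% of all genes had an unadjusted p under 0.05. Without Ctrl replicate 1, 4 genes passed as higher in L_IR, namely Akt1 (0.23), Mtor (0.41), Rptor (0.44) and Tsc2 (0.32), and still none in Ab_IR. In those fits 10.4% of all genes were higher and 9.95% lower in L_IR, and 3.56% and 2.09% in Ab_IR. With the Nppa split as a term and the IR libraries added, 4 genes passed as lower in Ab_IR (Igf1r -0.37, Mtor -0.64, Rictor -0.42 and Tsc1 -0.48), and in L_IR Akt1 passed as higher (0.17) and Rheb as lower (-0.24). All genes then passed far more often, 27.3% as higher and 27.1% as lower in Ab_IR and 27.5% and 25.7% in L_IR. With all 12 libraries in one fit, Rictor passed in Ab_IR (-0.27) and Akt1 (0.21), Rptor (0.34) and Tsc2 (0.28) passed in L_IR, where 8.1% of all genes were higher and 10.2% lower in Ab_IR, and 10.4% and 10.9% in L_IR. Over the 4 groups together, 7 of the 9 genes passed limma's F test, all but Akt2 and Rheb, where 65% of 12699 genes passed.

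The differences were small. With the study's additional rule of an absolute log2 fold change above 1, none of the 9 genes was called in any comparison. That rule called 7.6% of genes in IR against Ctrl, 7.57% in Ab_IR against IR and 6.22% in L_IR against IR. Its share was 0.533% in Ab_IR against L_IR, and relative to Ctrl it was 0.923% in Ab_IR and 2.65% in L_IR.

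**Figure D2:**
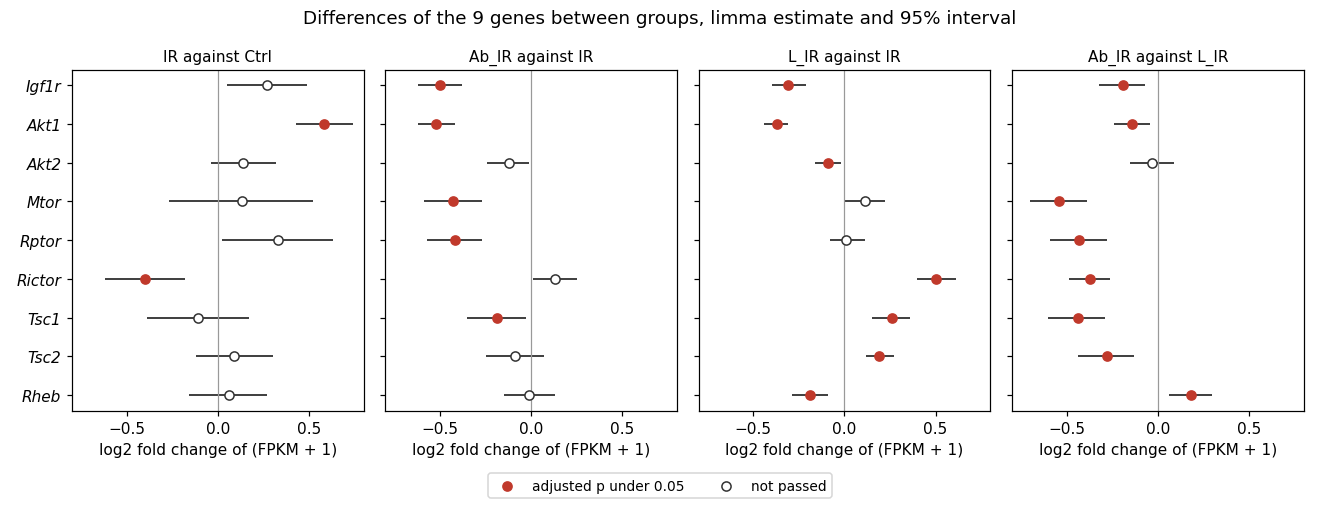
Difference in log2(FPKM + 1) (horizontal axes) of the 9 genes in 4 comparisons, as the limma estimate (points, filled where the adjusted p was under 0.05) and its 95% interval (lines), n = 3 per group. Akt1 and Igf1r lie left of 0 against IR in both Ab_IR and L_IR, while Mtor (-0.43 and 0.11) and Rptor (-0.42 and 0.01) do so in Ab_IR but not in L_IR.

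Igf1r (chromosome 7, 67952827 to 68233668, plus strand) encodes the receptor through which IGF1 acts. Its level was 7.25, 5.69 and 6.64 FPKM in Ctrl replicates 1 to 3, 7.83, 8.16 and 8.11 FPKM in IR, 5.02, 5.63 and 5.49 FPKM in Ab_IR, and 6.53, 6.02 and 6.32 FPKM in L_IR. The IR libraries were all above those of the other groups, the Ab_IR libraries were all below, and Ctrl and L_IR overlapped. The mean was 8.03 ± 0.178 FPKM (SD, n = 3) in IR and 6.53 ± 0.786 FPKM in Ctrl, a log2 difference of 0.27 (95% interval 0.05 to 0.49, adjusted p 0.0535) that did not pass. It passed with all 12 libraries in one fit (adjusted p 0.0103), with scaling by the median ratio (0.0272) and without Ctrl replicate 1 (0.00773). Igf1r fell in Ab_IR to 5.38 ± 0.32 FPKM, by 0.50 on the log2 scale against IR (SE 0.05, adjusted p 9.12e-05), and in L_IR to 6.29 ± 0.256 FPKM, by 0.31 (SE 0.04, adjusted p 4.39e-04). The gap between Ab_IR and L_IR was -0.19 (SE 0.054, adjusted p 0.0275), and did not pass without Ab_IR replicate 1 (adjusted p 0.0636), L_IR replicate 1 (0.0912) or L_IR replicate 3 (0.0807). With the trend against gene length removed, the fall in Ab_IR was -0.26 and still passed, whereas the gap between Ab_IR and L_IR was 0.05. At 16.8 kb of exon, Igf1r is among the longest of the 9 genes.

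The AKT kinases relay the signal of PI3K to growth, survival and metabolism. Akt1 (chromosome 12, 112653821 to 112674884, minus strand) was listed at 54.52, 49.78 and 55.05 FPKM in Ctrl, 81.86, 78.0 and 80.37 FPKM in IR, 54.86, 58.53 and 53.63 FPKM in Ab_IR, and 61.2, 62.57 and 60.9 FPKM in L_IR. IR stood clear of all other groups, L_IR lay between IR and the rest, and Ab_IR overlapped Ctrl. Akt1 rose from 53.1 ± 2.9 to 80.1 ± 1.95 FPKM in IR, by 0.58 on the log2 scale (SE 0.064, adjusted p 8.21e-04). It fell against IR by 0.52 in Ab_IR (SE 0.042, adjusted p 3.35e-05) and by 0.37 in L_IR (SE 0.026, adjusted p 2.17e-05). Its means there were 55.7 ± 2.55 and 61.6 ± 0.89 FPKM. The difference of Ab_IR from L_IR was -0.14 (SE 0.042, adjusted p 0.0323), a call that was lost with all 12 libraries in one fit (adjusted p 0.0781) and without any library of the pair other than Ab_IR replicate 2 (adjusted p 0.0714 to 0.106). Against Ctrl, the difference was 0.07 in Ab_IR (95% interval -0.11 to 0.25) and 0.21 in L_IR (0.05 to 0.37, adjusted p 0.105).

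Akt2 (chromosome 7, 27591552 to 27640826, plus strand), the paralogue best known for insulin-stimulated glucose uptake, varied least of the 9 genes across libraries. It was listed at 15.97, 15.74 and 18.4 FPKM in Ctrl, 18.52, 18.56 and 18.17 FPKM in IR, 16.08, 18.05 and 16.44 FPKM in Ab_IR, and 17.66, 16.79 and 17.27 FPKM in L_IR. Ctrl and Ab_IR each overlapped L_IR, and Ctrl also overlapped IR. The difference of IR from Ctrl was 0.14 (95% interval -0.04 to 0.32, adjusted p 0.191), and 0.20 without Ctrl replicate 3, where it passed. Akt2 fell in L_IR against IR by 0.09 (SE 0.029, adjusted p 0.029), a call that was lost without IR replicate 1 or 2 or L_IR replicate 2 or 3 (adjusted p up to 0.0845), with all 12 libraries in one fit (0.274) and with quantile normalization (0.0539). With the Nppa split as a term the difference came to -0.0037 (adjusted p 0.977). In Ab_IR the difference was -0.12 (95% interval -0.24 to -0.01, adjusted p 0.0564), which did not pass. It passed with quantile normalization (-0.14, adjusted p 0.0353), with median ratio scaling (-0.17, adjusted p 0.0166), with the GC trend removed (-0.23, adjusted p 8.00e-04) and without Ab_IR replicate 2 (-0.17).

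Mtor (chromosome 4, 148448611 to 148557683, plus strand) encodes the kinase shared by both complexes. Its level was 8.6, 5.06 and 6.55 FPKM in Ctrl, 7.07, 7.72 and 7.15 FPKM in IR, 4.96, 5.76 and 4.81 FPKM in Ab_IR, and 8.2, 7.6 and 8.15 FPKM in L_IR. The Ctrl libraries overlapped those of all other groups, with Ctrl replicate 1 the highest of the 12 libraries, while Ab_IR lay below both IR and L_IR. In IR against Ctrl the difference was 0.13 (95% interval -0.27 to 0.52, adjusted p 0.564), which turned to -0.04 without Ctrl replicate 2. Mtor fell in Ab_IR from 7.31 ± 0.354 to 5.18 ± 0.511 FPKM, by 0.43 on the log2 scale (SE 0.068, adjusted p 9.77e-04). In L_IR it was 7.98 ± 0.333 FPKM, a difference of 0.11 from IR (95% interval 0.00093 to 0.22, adjusted p 0.0701) that did not pass. With the Nppa split as a term it turned to -0.39 and passed as lower (SE 0.14, adjusted p 0.0467), and it passed as higher without IR replicate 2 (0.15) or L_IR replicate 2 (0.14). Ab_IR was below L_IR by -0.54 (SE 0.067, adjusted p 0.00104), the widest gap of the 9 genes in that comparison.

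Rptor (chromosome 11, 119602905 to 119899576, plus strand) encodes the scaffold that brings substrates to mTORC1. It was listed at 3.94, 2.59 and 3.55 FPKM in Ctrl, 4.41, 4.53 and 4.34 FPKM in IR, 2.74, 3.34 and 3.11 FPKM in Ab_IR, and 4.66, 4.36 and 4.41 FPKM in L_IR. IR and L_IR overlapped and lay above Ctrl and Ab_IR, which overlapped with each other. The difference of IR from Ctrl was 0.33 (95% interval 0.02 to 0.63, adjusted p 0.0789), which did not pass. It passed with quantile normalization (0.49, adjusted p 0.0263), median ratio scaling (0.0499), all 12 libraries in one fit (0.0203), the length trend removed (0.0216) and without Ctrl replicate 1 (0.0145). Rptor fell in Ab_IR from 4.43 ± 0.0961 to 3.06 ± 0.303 FPKM, by 0.42 (SE 0.064, adjusted p 7.80e-04). The L_IR libraries averaged 4.48 ± 0.161 FPKM, a difference of 0.01 from IR (95% interval -0.08 to 0.11), which turned to -0.14 and passed with quantile normalization. With the GC trend removed it turned to -0.10 and also passed (adjusted p 0.0402). Ab_IR was below L_IR by -0.43 (SE 0.065, adjusted p 0.00247).

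Rictor (chromosome 15, 6708379 to 6800401, plus strand) encodes the defining subunit of mTORC2 and had its lowest mean in IR, where Igf1r and Akt1 had their highest. Its level was 3.35, 2.71 and 2.74 FPKM in Ctrl, 1.94, 1.94 and 2.03 FPKM in IR, 2.19, 2.34 and 2.21 FPKM in Ab_IR, and 3.11, 3.22 and 3.29 FPKM in L_IR. IR lay lowest, Ab_IR came next without overlap, and L_IR overlapped Ctrl. Rictor fell in IR from 2.93 ± 0.361 to 1.97 ± 0.052 FPKM, by 0.40 (SE 0.091, adjusted p 0.0133). That call was lost without any 1 of the IR replicates (adjusted p 0.0511 to 0.0593) and with quantile normalization (-0.21, adjusted p 0.137). It rose in L_IR to 3.21 ± 0.0907 FPKM, by 0.50 against IR (SE 0.045, adjusted p 7.10e-05), and passed at 0.28 with the Nppa split as a term. In Ab_IR its mean was 2.25 ± 0.0814 FPKM and the difference from IR 0.13 (95% interval 0.01 to 0.25, adjusted p 0.0555), a value of -0.05 with quantile normalization and of 0.37 with the length trend removed, where it passed (adjusted p 4.82e-04). Ab_IR was below L_IR by -0.37 (SE 0.05, adjusted p 0.0015).

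TSC1 and TSC2 form the brake upstream of mTORC1, TSC2 being the part that acts on RHEB. Tsc1 (chromosome 2, 28641228 to 28691167, plus strand) was listed at 3.12, 2.11 and 2.74 FPKM in Ctrl, 2.42, 2.31 and 2.35 FPKM in IR, 1.71, 2.14 and 2.01 FPKM in Ab_IR, and 3.05, 3.03 and 2.95 FPKM in L_IR. The irradiated groups did not overlap, with Ab_IR lowest and L_IR highest, while Ctrl spanned from Ab_IR to above L_IR. In IR against Ctrl the difference was -0.11 (95% interval -0.39 to 0.17), and 0.08 with quantile normalization. Tsc1 rose in L_IR from 2.36 ± 0.0557 to 3.01 ± 0.0529 FPKM, by 0.26 (SE 0.043, adjusted p 0.0016), a value of -0.02 with the Nppa split as a term and of 0.06 (adjusted p 0.29) with quantile normalization. In Ab_IR it fell to 1.95 ± 0.221 FPKM, by 0.19 (SE 0.067, adjusted p 0.039). That call held only without Ab_IR replicate 2 among the fits that left out 1 library, and was lost with all 12 libraries in one fit (adjusted p 0.119) and with the length trend removed (-0.03). Ab_IR was below L_IR by -0.44 (SE 0.067, adjusted p 0.00249).

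Tsc2 (chromosome 17, 24595816 to 24632630, minus strand) was listed at 7.93, 6.52 and 7.98 FPKM in Ctrl, 7.94, 7.86 and 8.17 FPKM in IR, 6.72, 8.23 and 7.44 FPKM in Ab_IR, and 9.25, 9.24 and 9.3 FPKM in L_IR. L_IR stood above all other libraries, and the other 3 groups overlapped. Tsc2 rose in L_IR from 7.99 ± 0.161 to 9.26 ± 0.0321 FPKM, by 0.19 (SE 0.031, adjusted p 0.00138), and by 0.07 with the Nppa split as a term, where it did not pass. That call was also lost with all 12 libraries in one fit (adjusted p 0.0689). Its difference from Ctrl was 0.09 in IR (95% interval -0.12 to 0.30) and its difference from IR was -0.09 in Ab_IR (-0.25 to 0.07), the latter passing at -0.16 without Ab_IR replicate 2. Ab_IR was below L_IR by -0.28 (SE 0.066, adjusted p 0.0141). Of the exon bases of Tsc2, 693 (7.2%) are shared with Pkd1 on the opposite strand, at a mean of 2.29 FPKM, and whether the authors' counting used strand is not given in the sources used here.

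Rheb (chromosome 5, 24802823 to 24842624, minus strand) encodes the GTPase that switches on mTORC1. Its level was 8.26, 7.92 and 6.75 FPKM in Ctrl, 7.62, 8.41 and 7.86 FPKM in IR, 8.18, 7.31 and 8.24 FPKM in Ab_IR, and 6.85, 6.88 and 6.8 FPKM in L_IR. L_IR lay below IR and Ab_IR, and among Ctrl libraries 1 was lower still. Rheb fell in L_IR from 7.96 ± 0.405 to 6.84 ± 0.0404 FPKM, by 0.19 (SE 0.042, adjusted p 0.00553). In Ab_IR its difference from IR was -0.01 (95% interval -0.15 to 0.13), and Ab_IR was above L_IR by 0.18 (SE 0.052, adjusted p 0.0295), a call that was kept without Ab_IR replicate 2 and lost without any other library (adjusted p 0.0732 to 0.0863). Against Ctrl the difference was 0.06 in IR (95% interval -0.16 to 0.27) and -0.14 in L_IR (-0.34 to 0.07).

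Ratios between partner genes within a library do not depend on a scaling factor common to all genes of that library. Trends with gene length or GC content need not cancel, and the ratios were not computed with these removed. GC content of the longest transcript was 56.5% for Rptor and 42.5% for Rictor. Akt1 to Akt2 was 3.41, 3.16 and 2.99 in Ctrl, 4.42, 4.2 and 4.42 in IR, 3.41, 3.24 and 3.26 in Ab_IR, and 3.47, 3.73 and 3.53 in L_IR. Rptor to Rictor was 1.18, 0.956 and 1.3 in Ctrl, 2.27, 2.34 and 2.14 in IR, 1.25, 1.43 and 1.41 in Ab_IR, and 1.5, 1.35 and 1.34 in L_IR. In both ratios the IR libraries were above the other 9, while Ab_IR overlapped Ctrl and L_IR lay above Ctrl without overlap (by 0.17 and 0.30 in log2 units, exact permutation p 0.1 for each, the lowest possible). Tsc1 to Tsc2 was 0.393, 0.324 and 0.343 in Ctrl, 0.305, 0.294 and 0.288 in IR, 0.254, 0.26 and 0.27 in Ab_IR, and 0.33, 0.328 and 0.317 in L_IR. This ratio was lowest in Ab_IR, then in IR, and Ctrl and L_IR overlapped.

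Among the 4 groups, the spread between group means was tested by exact permutation over 369600 arrangements. These tests gave adjusted p 0.00123 for Akt1 to Akt2, 0.00123 for Rptor to Rictor and 5.84e-04 for Tsc1 to Tsc2. With 3 libraries against 3, a two-sided exact permutation test cannot go below p 0.1. All 3 ratios reached that value in IR against Ctrl, in Ab_IR against IR and in L_IR against IR. In log2 units, IR differed from Ctrl by 0.45 in Akt1 to Akt2, by 0.99 in Rptor to Rictor and by -0.25 in Tsc1 to Tsc2. Against IR, the Rptor to Rictor ratio fell by 0.72 in Ab_IR and by 0.69 in L_IR, and Ab_IR and L_IR overlapped (difference -0.04, exact permutation p 0.7). The Tsc1 to Tsc2 ratio differed from IR by -0.18 in Ab_IR and by 0.14 in L_IR, and the libraries of Ab_IR and L_IR did not overlap (difference -0.31, exact permutation p 0.1).

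**Figure D3:**
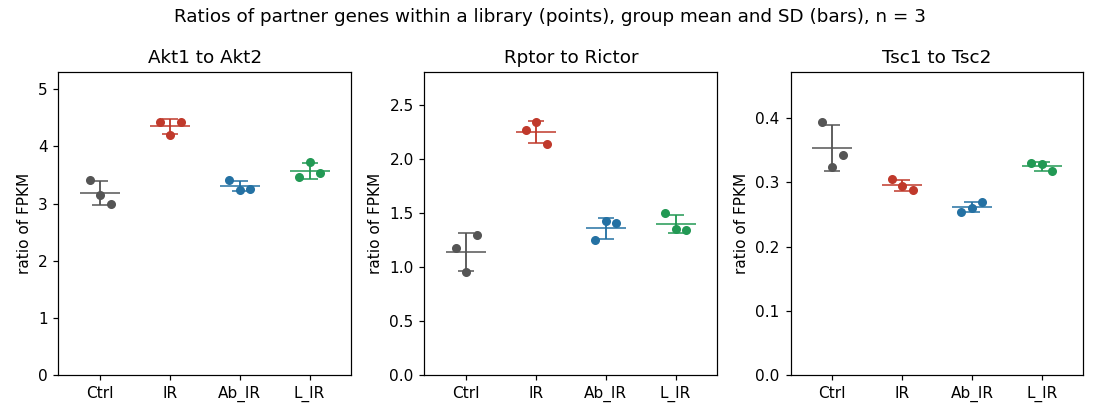
Ratio of FPKM of partner genes within each library (vertical axes, from 0) by group, with the group mean and SD (bars, n = 3). The Rptor to Rictor ratio lies at 2.14 to 2.34 in IR and at 0.956 to 1.5 in the other 9 libraries.

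The wider pathway was followed with a list of 111 genes in 10 roles, of which 109 were in the files. In IR against Ctrl, 16 of the 95 tested rose and 27 fell, which is 16.8% and 28.4%, close to the 17.5% and 25.5% of all genes. Against IR, 43 rose and 26 fell of 93 in Ab_IR (46.2% and 28%), and 42 rose and 26 fell of 94 in L_IR (44.7% and 27.7%). Over all genes these shares were 39.4% and 29.4% in Ab_IR and 40.8% and 26% in L_IR, near those of the list. Between Ab_IR and L_IR, 12 of 97 were higher (12.4%) and 20 lower (20.6%) in Ab_IR, against 18.2% and 19.8% of all genes. Against Ctrl, of 97 tested, 1 gene fell in Ab_IR (1.03%, against 0.651% of all genes) and none rose (1.45%), and in L_IR 1 rose and 2 fell (1.03% and 2.06%, against 4.76% and 4.08%). The roles below hold few genes each, so the shares over all genes are set beside their counts and no role was tested as a group. Pathway genes outside the naming rule were chosen after their values were seen.

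The ligand Igf1 itself was near 0, with 0.16 ± 0.142 FPKM in Ctrl against 0.17 ± 0.07 in IR, 0.28 ± 0.0436 in Ab_IR and 0.337 ± 0.0252 in L_IR, and was too low to be tested. Among IGF binding proteins, which hold IGF1 in the extracellular space, Igfbp4 was listed at 56 ± 6.53 FPKM in Ctrl and 54.8 ± 0.541 in IR, and rose against IR to 72.2 ± 2.85 FPKM in Ab_IR and to 70 ± 3.43 FPKM in L_IR. Igfbp5 fell in IR from 3.6 ± 0.352 to 1.05 ± 0.166 FPKM, and was also lower than Ctrl in Ab_IR and L_IR.

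Of 9 tested receptors and adaptors, 4 rose and 2 fell in IR, 1 rose and 6 fell in Ab_IR against IR, and 1 rose and 5 fell in L_IR against IR. That is 44.4% higher and 22.2% lower in IR (17.5% and 25.5% of all genes), 11.1% and 66.7% in Ab_IR (39.4% and 29.4%), and 11.1% and 55.6% in L_IR (40.8% and 26%). Insr, the insulin receptor, was listed at 3.67 ± 0.148 FPKM in Ctrl against 4.62 ± 0.0557 in IR, 3.14 ± 0.129 in Ab_IR and 3.73 ± 0.227 in L_IR. Igf2r, which clears IGF2 from the cell surface, went from 5.1 ± 0.633 to 9.55 ± 0.372 FPKM in IR and was at 4.78 ± 0.531 and 5.55 ± 0.101 FPKM in Ab_IR and L_IR. Irs2, a docking protein of the insulin and IGF1 receptors, went from 5.11 ± 0.569 to 8.25 ± 0.352 FPKM in IR and was at 4.51 ± 0.265 and 5.8 ± 0.25 FPKM in the other irradiated groups. In each of these 3 genes the highest group mean was that of IR, as for Igf1r. The docking protein gene Gab1 went the other way, from 4.83 ± 0.539 to 0.957 ± 0.0611 FPKM in IR, and stood at 4.21 ± 0.17 FPKM in Ab_IR and 3.71 ± 0.206 FPKM in L_IR.

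Of 8 tested PI3K subunits, 3 rose and none fell in IR, and in Ab_IR and in L_IR 2 rose and 5 fell against IR. The share higher in IR was 37.5%, against 17.5% of all genes, and the share lower against IR was 62.5% in both groups, against 29.4% of all genes in Ab_IR and 26% in L_IR. In the other direction, 0% were lower in IR, against 25.5% of all genes. The share higher against IR was 25% in both groups, against 39.4% in Ab_IR and 40.8% in L_IR. Pik3r5, a regulatory subunit of the class of PI3K driven by G protein-coupled receptors, rose in IR from 6.66 ± 0.685 to 18 ± 0.696 FPKM, by 1.32 on the log2 scale (SE 0.083, adjusted p 9.67e-05). It fell by 1.26 in Ab_IR (SE 0.052, adjusted p 1.31e-06) and by 0.92 in L_IR (SE 0.041, adjusted p 2.58e-06), where it remained 0.40 above Ctrl (SE 0.084, adjusted p 0.0371). Pik3cb, a catalytic subunit, rose in IR by 0.88 (SE 0.059, adjusted p 1.23e-04), from 6.07 ± 0.0866 to 12 ± 0.416 FPKM.

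Among 9 kinases and phosphatases around AKT, 3 rose (33.3%) and 5 fell (55.6%) in IR, against 17.5% and 25.5% of all genes. Of the 8 tested against IR, 4 rose and 4 fell in Ab_IR (50% each, against 39.4% and 29.4%), and 4 rose and 3 fell in L_IR (50% and 37.5%, against 40.8% and 26%). Sgk1, a kinase related to AKT, rose in IR from 5.42 ± 0.781 to 10.4 ± 0.626 FPKM, by 0.83 (adjusted p 0.00144). It fell against IR in both other groups, by 0.96 in Ab_IR (SE 0.053, adjusted p 4.82e-06) to 4.82 ± 0.155 FPKM and by 1.03 in L_IR (SE 0.053, adjusted p 5.25e-06) to 4.57 ± 0.227 FPKM.

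Of 8 other tested subunits of the mTOR complexes, none rose and 2 fell in IR, 4 rose and 1 fell in Ab_IR, and 6 rose and 1 fell in L_IR. The 25% lower in IR was near the 25.5% of all genes, and the shares higher against IR were 50% in Ab_IR and 75% in L_IR, against 39.4% and 40.8%. In the other direction, 0% were higher in IR, against 17.5% of all genes. The share lower against IR was 12.5% in both groups, against 29.4% in Ab_IR and 26% in L_IR. Mlst8, present in both complexes, was listed at 8.36 ± 0.83 FPKM in Ctrl against 6.49 ± 0.387 in IR, 8.73 ± 0.671 in Ab_IR and 7.77 ± 0.0611 in L_IR. Deptor, an inhibitor bound to mTOR, was listed at 2.74 ± 1.08, 0.987 ± 0.0611, 1.96 ± 0.16 and 2.24 ± 0.215 FPKM in the same order. Mapkap1, the mTORC2 subunit also called SIN1, was at 12.3 ± 1.23, 12.7 ± 0.701, 11.9 ± 0.387 and 12.1 ± 0.243 FPKM and passed in none of these comparisons. Of the relatives of TSC and RHEB, Tbc1d7, the small subunit of the TSC complex, was listed at 1.38 ± 0.54, 2.14 ± 0.182, 1.76 ± 0.154 and 1.74 ± 0.0361 FPKM, and fell against IR in both other irradiated groups.

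Energy and stress inputs reach mTORC1 through AMPK and the TSC complex. Of 7 tested energy and stress inputs, none rose and 4 fell in IR, 6 rose in Ab_IR and 4 rose in L_IR, with none falling in either. The share lower in IR was 57.1%, against 25.5% of all genes, and the shares higher were 85.7% in Ab_IR and 57.1% in L_IR, against 39.4% and 40.8%. In the other direction, 17.5% of all genes were higher in IR. Against IR, 29.4% of all genes were lower in Ab_IR and 26% in L_IR. Ddit4, a stress-induced activator of the TSC complex, fell in IR from 22 ± 3.33 to 9.05 ± 0.426 FPKM, by 1.18 (SE 0.11, adjusted p 4.26e-04), and was at 17 ± 0.788 FPKM in Ab_IR and 15 ± 0.748 FPKM in L_IR. It rose in Ab_IR by 0.84 against IR (SE 0.051, adjusted p 7.71e-06) and remained below Ctrl in L_IR by -0.51 (SE 0.11, adjusted p 0.0396). Of 25 tested genes of amino acid sensing, 3 rose and 6 fell in IR, 13 of 25 rose and 5 fell in Ab_IR, and 12 of 26 rose and 6 fell in L_IR. These shares (12% and 24%, 52% and 20%, 46.2% and 23.1%) compare with 17.5% and 25.5%, 39.4% and 29.4%, and 40.8% and 26% of all genes. Sesn1, a p53 target that inhibits mTORC1, fell in IR from 7.84 ± 0.234 to 3.17 ± 0.313 FPKM, by 1.08 (SE 0.079, adjusted p 1.68e-04), and rose by 0.87 in Ab_IR and by 0.88 in L_IR to 6.61 ± 0.374 and 6.68 ± 0.146 FPKM. Between Ab_IR and L_IR, Lamtor4, a lysosomal anchor of mTORC1, was higher in Ab_IR by 0.31 (adjusted p 0.00132).

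Downstream, 2 of 17 mTORC1 targets rose and 3 fell in IR (11.8% and 17.6%, against 17.5% and 25.5% of all genes). Against IR, 7 of 16 rose and 2 fell in Ab_IR (43.8% and 12.5%, against 39.4% and 29.4%), and 8 of 17 rose and 3 fell in L_IR (47.1% and 17.6%, against 40.8% and 26%). Hif1a, whose protein is made under mTORC1 control, was listed at 16.3 ± 1.55 FPKM in Ctrl against 27.9 ± 0.336 in IR, 13.1 ± 0.297 in Ab_IR and 15.2 ± 0.371 in L_IR, and fell in Ab_IR by 1.03 against IR (SE 0.035, adjusted p 5.56e-07). Eif4g1, a translation initiation scaffold, was lower in Ab_IR than in L_IR by -0.39 (adjusted p 5.21e-04), and Rps6, the ribosomal protein phosphorylated by S6 kinase, was higher by 0.32 (adjusted p 0.0016), at 1161 ± 53.1 and 931 ± 9.21 FPKM. Of 8 AKT targets, 1 rose (Mdm2) and 4 fell (Foxo1, Foxo3, Foxo4 and Cdkn1b) in IR, which is 12.5% and 50% against 17.5% and 25.5% of all genes. In Ab_IR 5 rose and 2 fell against IR (62.5% and 25%, against 39.4% and 29.4%), and in L_IR 4 rose and 2 fell (50% and 25%, against 40.8% and 26%). Foxo3, a transcription factor that AKT excludes from the nucleus, was listed at 13.5 ± 2.11 FPKM in Ctrl against 8.8 ± 0.473 in IR, 11.9 ± 0.873 in Ab_IR and 12.3 ± 0.479 in L_IR.

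**Figure D4:**
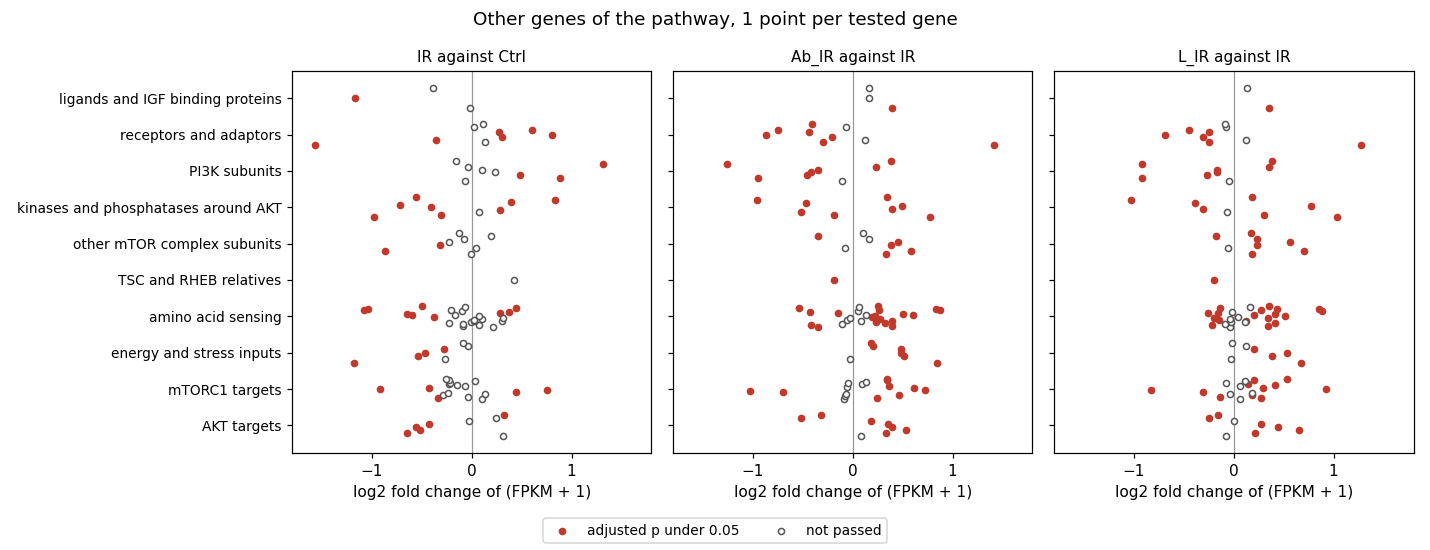
Difference in log2(FPKM + 1) (horizontal axes) of each tested gene of the wider pathway list (points, filled where limma's adjusted p was under 0.05) by role (rows) in 3 comparisons. Energy and stress inputs that passed lie left of 0 in IR against Ctrl (4 genes) and right of 0 in Ab_IR (6) and L_IR (4) against IR, of 7 tested, where 25.5%, 39.4% and 40.8% of all genes passed in those directions.

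Across the 12 libraries, the genes most like Igf1r, Akt1 and Mtor were taken by the root mean square difference of scaled log2(FPKM + 1), in SD units, among 7657 genes. Nearest to Igf1r were Ncoa4-ps (0.174), Hipk2 (0.192) and Foxk2 (0.194), to Akt1 were Nadk (0.12), Pgam1 (0.131) and Prkd2 (0.137), and to Mtor were Trak1 (0.228), Polr2a (0.246) and Cep250 (0.251). Group means of Nadk, the NAD kinase, were 41.1 FPKM in Ctrl against 59.6 in IR, 42 in Ab_IR and 46.7 in L_IR, the order seen for Akt1. Among the 9 genes, the closest pair was Mtor and Rptor (0.445), followed by Mtor and Tsc1 (0.514), and the farthest was Tsc2 and Rheb (1.85). The 12 libraries share their groups and the Nppa split, so these values describe likeness only.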

How the data were processed

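RNA-seq was made from 12 libraries of cells sorted as HSCs, 3 per group, grouped by their titles. Each file gives 1 library's values per gene name, and the unit is not named. The values were read as FPKM as the authors computed them, because library sums (344338 to 405123) differ and values times exon length in kb sum alike (913838 to 945611). The submitters' processing notes name fastp, HISAT2, StringTie, GRCm38 and mm10, without versions, whereas the study's methods name RSEM for quantification. The deposited FPKM carry no counts, so the authors' DESeq2 was not applied and depth is unknown.

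Each comparison used log2(FPKM + 1) of its own groups in limma 3.58.1 (R 4.3.3), with lmFit and trended eBayes, over rows with at least 1 FPKM in at least 3 libraries, with Benjamini-Hochberg adjustment over all rows tested. All 9 genes passed that filter in each of the 6 comparisons. Ratios were tested by exact permutation (Python 3.11.15), adjusted over 3 ratios. Positions are from GENCODE M21 (GRCm38), which matched 96.7% of names. Named pathway genes were the 2 largest rises and falls per comparison among those that passed with a mean of at least 5 FPKM, and some of them are not reported here. Both tests were first tested on simulated data. The members, lists and tests were chosen with earlier results of these data known, and the alternatives that removed a length or GC trend, or added the Nppa split to comparisons with Ctrl, were chosen after seeing the data.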

Additional observations from a re-analysis of the deposited data

Results flagged for a closer look

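Ab_IR and L_IR differed from IR by unequal amounts in 8 of the 9 genes, as tested by the direct comparison of Ab_IR with L_IR, in which the shared IR libraries drop out. In that comparison 19.8% of all genes passed as lower and 18.2% as higher. Mtor differed by -0.54 between them (-0.43 in Ab_IR and 0.11 in L_IR, each against IR), Tsc1 by -0.44 (-0.19 and 0.26), Rptor by -0.43 (-0.42 and 0.01), Rictor by -0.37 (0.13 and 0.50) and Tsc2 by -0.28 (-0.09 and 0.19). Igf1r differed by -0.19 (-0.50 and -0.31), Akt1 by -0.14 (-0.52 and -0.37) and Rheb by 0.18 (-0.01 and -0.19). The first 5 kept limma's call with all 12 libraries in one fit, and the last 3 did not. With the length trend removed, Igf1r differed by 0.05, Rictor by -0.13 and Tsc2 by -0.15, none of which passed. In the same comparison, markers were higher in Ab_IR for 8 of 10 neutrophil, 7 of 7 erythroid and 5 of 5 mast cell and basophil genes. The same held for 4 of 6 megakaryocyte and 1 of 6 macrophage genes. Markers were lower in Ab_IR for 8 of 8 plasma cell and 1 of 3 tested B cell genes. Of 8 tested HSC and progenitor markers, 3 were higher and 1 lower in Ab_IR. The part of all these markers in the differences of the 9 genes was not tested.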

How the results depend on the processing

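Of 846 values of single genes under an alternative, 716 kept their direction and side of the threshold, 38 passed that had not, 50 no longer passed and 42 turned direction. The cause of these changes was not tested. Genes past the test in IR against Ctrl, 2 in the report, numbered 1 with no filter on low values and 4 with median ratio scaling, all 12 libraries in one fit or the length trend removed. In Ab_IR against L_IR, 8 became 5 with no filter, all 12 libraries, the replicate block or the length trend removed. In Ab_IR against Ctrl, 0 became 1 with all 12 libraries and 4 with the Nppa split as a term, and in L_IR against Ctrl 0 became 3, 2 and, with the length trend removed, 1. Leaving out 1 library gave 1 to 5 in IR against Ctrl (5 without Ctrl replicate 1), 4 to 7 in Ab_IR against IR, 6 to 7 in L_IR against IR, 5 to 8 in Ab_IR against L_IR, 0 to 0 in Ab_IR against Ctrl, 0 to 4 in L_IR against Ctrl (4 without Ctrl replicate 1) and 6 to 9 over the 4 groups. The Rptor to Rictor difference between Ab_IR and L_IR then ran from -0.07 to 0.02 (0.01 without L_IR replicate 1). Same-numbered libraries correlated at -0.27 to 0.21, and 14 of 36 correlated best with their own number, so no pairing by replicate number was seen. With 3 libraries per group, this check cannot exclude such pairing. The replicate block also ended the calls of Tsc1 in Ab_IR (adjusted p 0.0683) and of Akt2 in L_IR (0.0598) against IR.

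Values that turned direction were as follows. With quantile normalization they were 0.08 for Tsc1 in IR against Ctrl, -0.05 for Rictor in Ab_IR against IR, -0.14 for Rptor in L_IR against IR, and -0.04 for Akt1, -0.00078 for Akt2 and 0.0036 for Tsc2 in Ab_IR against Ctrl. With median ratio scaling, Rptor was -0.03 in L_IR against IR and Tsc2 0.01 in Ab_IR against Ctrl. With the Nppa split as a term, Rictor was -0.10 in Ab_IR against IR, Mtor -0.39, Rptor -0.28 and Tsc1 -0.02 in L_IR against IR, Rheb -0.06 in Ab_IR against Ctrl, and Mtor -0.10, Rictor -0.05 and Tsc1 -0.04 in L_IR against Ctrl. With the length trend removed, Tsc2 was 0.01 and Rheb 0.03 in Ab_IR against IR, Rptor -0.01 in L_IR against IR, Igf1r 0.05 and Akt2 0.04 in Ab_IR against L_IR, and Igf1r 0.0016, Rptor 0.11 and Tsc2 0.15 in Ab_IR against Ctrl. With the GC trend removed, Rptor was -0.10 in L_IR against IR, Akt1 -0.06 and Akt2 -0.07 in Ab_IR against Ctrl, and Akt2 -0.01 in L_IR against Ctrl. Leaving out 1 library at a time, in IR against Ctrl Mtor ran from -0.04 (without Ctrl replicate 2) to 0.30 and Rheb from -0.02 (without Ctrl replicate 3) to 0.11. In Ab_IR against IR, Rheb ran from -0.04 to 0.04, above 0 without IR replicate 2 or Ab_IR replicate 2. Rptor ran from -0.01 (without L_IR replicate 1) to 0.03 in L_IR against IR, and Igf1r from -0.12 to 0.03 (without Ctrl replicate 1) in L_IR against Ctrl. In Ab_IR against Ctrl, Akt2 ran from -0.03 to 0.08 (below 0 without Ctrl replicate 1 or 2 or Ab_IR replicate 2), Rptor from -0.23 to 0.01 (without Ctrl replicate 1), Tsc2 from -0.09 to 0.06 (above 0 without Ctrl replicate 1 or 3 or Ab_IR replicate 1) and Rheb from -0.03 (without Ctrl replicate 3) to 0.10.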
